A study of Homo sapiens with 24 samples.

Results

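Polycomb repressive complex 2 (PRC2) is the methyltransferase complex that places the repressive H3K27me3 mark, and the genes described here are 8 that encode its subunits and 2 that encode the H3K27 demethylases KDM6A and KDM6B. The 10 genes were taken by symbol from the 58884 genes of the deposited expression tables. The rule used no measured value, but the genes were chosen with earlier results of these data known. The study asked how loss and excess of SETD2, the methyltransferase that places H3K36me3, changed chromatin and transcription in HEK293T, a human embryonic kidney cell line. RNA-seq was read in 10 of the 24 samples, 2 per group, in a first table with WT and KO and a second table with KO, SETD2 FL and SETD2 C. The WT cells were wild-type and untreated. The KO cells carry a disruption of both SETD2 alleles and were untreated. The SETD2 FL cells were KO cells given full-length SETD2, and the SETD2 C cells were KO cells given residues 1404 to 2564, which leave out the N-terminal region and are named N3 in the labels. Both constructs were introduced by transfection under a CMV promoter, with RNA taken 72 h later. The 4 groups of edited cells therefore share the SETD2 disruption, and no library of cells given an empty vector was analysed here.

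PRC2 is built on a catalytic subunit, either EZH2 or its paralog EZH1, held with EED and SUZ12. EED binds H3K27me3 and SUZ12 is the scaffold. RBBP4 and RBBP7 are closely related histone-binding proteins that also serve in deacetylase and chromatin assembly complexes. JARID2 and AEBP2 are accessory subunits that define the PRC2.2 form. EZH2 is known as the more active methyltransferase of dividing cells and EZH1 as the weaker one, present also in resting tissues. H3K36me3 on a histone tail is known to impede PRC2 on that tail.

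The upstream sequences of the paralogs EZH1 and EZH2 are shown because the results below turn on the difference between this pair. Each window holds the 250 bases before a RefSeq transcript start on GRCh38.p14, on the minus strand, 5′ to 3′. The EZH1 window lies at chr17:42745041-42745290 and the EZH2 window at chr7:148884292-148884541. EZH1 itself spans chr17:42700275-42745049 with 21 exons in its reference transcript, and EZH2 spans chr7:148807257-148884321 with 20 (GRCh38). Capitals mark E2F-type letters (TTTCCCGC, TTTCGCGC, TTTGCCGC or TTTGGCGC, either strand) in EZH1 and the CCAAT box (CCAAT, either strand) in EZH2.
EZH1: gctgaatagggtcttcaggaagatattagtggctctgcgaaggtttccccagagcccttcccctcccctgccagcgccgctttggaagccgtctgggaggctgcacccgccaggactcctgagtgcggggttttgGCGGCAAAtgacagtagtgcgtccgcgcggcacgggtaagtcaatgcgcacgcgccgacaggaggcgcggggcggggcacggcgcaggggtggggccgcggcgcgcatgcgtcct
EZH2: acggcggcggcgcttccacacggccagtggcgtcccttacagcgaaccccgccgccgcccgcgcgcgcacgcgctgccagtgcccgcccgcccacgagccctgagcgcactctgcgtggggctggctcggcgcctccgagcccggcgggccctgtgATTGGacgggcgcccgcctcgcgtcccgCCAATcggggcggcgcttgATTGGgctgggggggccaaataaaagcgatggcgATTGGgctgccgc
The EZH1 window held 1 E2F-type match, 115 bases before the start, and no CCAAT match. This EZH2 window, 1 of 2 listed for the gene, held 4 CCAAT matches and no E2F-type match, and the other window held neither. Of 35116 such windows, 2.79% held the E2F-type letters and 32.0% held CCAAT. The E2F-type letters also stood in the windows of SUZ12 and AEBP2, whose transcripts passed no test in any comparison. CCAAT also stood in windows of EED, SUZ12, RBBP4, RBBP7, JARID2 and KDM6A. The GC box (GGGCGG, either strand), also searched, stood in the windows shown for both EZH1 and EZH2. The hypoxia response core (ACGTG, either strand) was searched as well and stood in neither of them. GC content was 67.6% in the EZH1 window and 75.6% in the EZH2 window, against a median of 58.0% over all windows. The motifs were picked after the expression values were seen, and a match is a description of letters only.

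Expression was read as TPM, which is relative to transcript length and to the sum over a library. The total reads behind a library are unknown from these values, so no counting error is given. Scaling factors between libraries lay between 0.879 and 1.06 in the first table and between 0.956 and 1.07 in the second. Across genes, the 2 libraries of a group correlated with a Pearson r of 0.993 to 0.995. The mitochondrially encoded share of TPM was 23.2% in WT replicate 1 and 11.99% to 14.1% in the other libraries of the first table. In the second table it was 2.93% and 3.37% with SETD2 C, 6.23% and 7.04% with KO, and 7.79% and 11.0% with SETD2 FL. All 8 markers of the HEK293T line were above 0 TPM in every library. The SETD2 row was 12.62 and 14.82 TPM in WT and 16.19 and 16.31 TPM in the first libraries labelled KO, so the transcript level does not show the loss and these libraries are called by their label. It was 11.99 and 12.15 TPM in the second libraries labelled KO, 422 and 439 TPM with SETD2 FL, and 1264 and 1329 TPM with SETD2 C.

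The levels of the 10 genes spanned a wide range that kept much of its order in every group. RBBP7 was highest, at 388 to 595 TPM over the 10 libraries, and RBBP4 was next, at 271 to 420 TPM. EZH2 followed in every group, at 47.55 to 63.15 TPM. KDM6B was lowest in every group, at 6.38 to 9.0 TPM, and KDM6A lay at 14.42 to 18.07 TPM. JARID2 lay at 9.47 to 13.50 TPM, the lowest of the PRC2 subunits in every group. The middle of the order differed between the tables. EZH1 was the eighth of the 10 in both groups of the first table and the fourth in all 3 groups of the second. With SETD2 FL the ranges of EZH1, SUZ12 and EED, at ranks 4 to 6, could not be ordered, since neighbours overlapped. AEBP2 overlapped EED in WT, KDM6A overlapped EZH1 in the first KO group, and AEBP2 overlapped KDM6A in the second KO group and with SETD2 C.

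**Figure D1:**
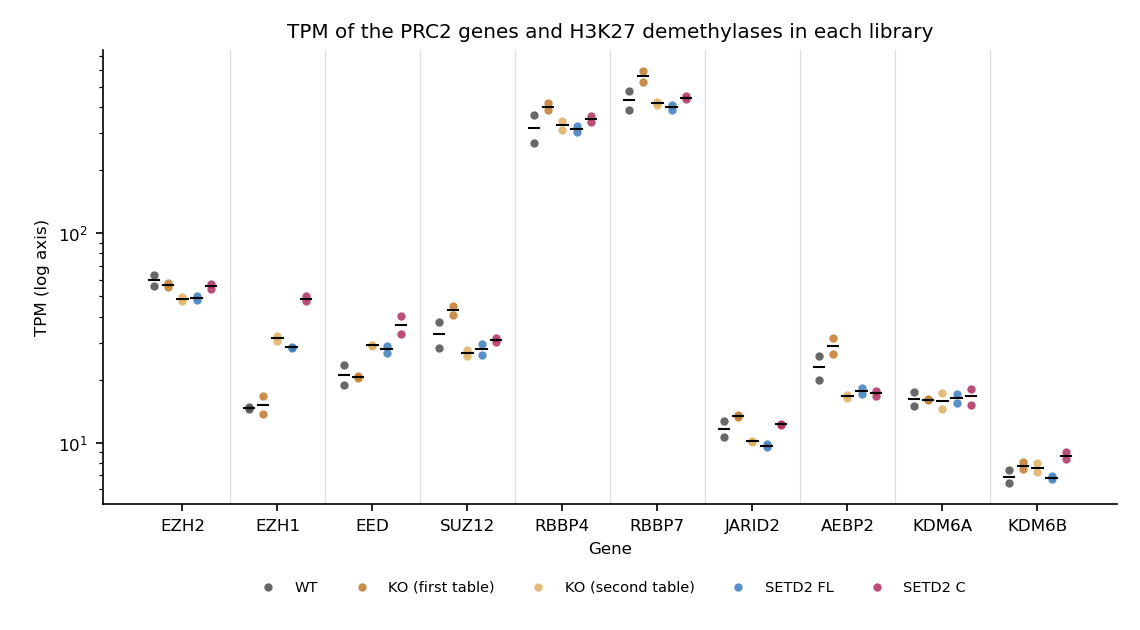
TPM of each gene in every library on a log axis. Each point is 1 library, the short black lines are group means (n = 2), and colours give the group. EZH1 with SETD2 C, at 47.32 and 49.94 TPM, stands above its other groups. Other genes also spread within a table, such as SUZ12 at 28.26 to 44.92 TPM in the first and EED at 26.81 to 40.05 TPM in the second.

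The comparison of KO with WT asks what loss of SETD2 did to the PRC2 genes, and none of the 10 passed the test there. In this comparison 1.32% of 14746 genes were called higher and 3.17% lower (limma, Benjamini-Hochberg adjusted p up to 0.05), and 1.36% were called with a fold of at least 2 as well. Among the catalytic subunits, EZH2 was 56.17 and 63.15 TPM in WT and 55.45 and 57.83 TPM in the libraries labelled KO. The TPM of the 2 groups overlapped, and after scaling both libraries labelled KO were below both WT libraries. The log2 fold change of EZH2 was −0.20 (SE 0.07, 95% interval −0.38 to −0.03, limma adjusted p = 0.156). EZH1 was 14.41 and 14.76 TPM in WT and 13.67 and 16.64 TPM in the libraries labelled KO, with the WT libraries inside the KO range. Its log2 fold change was −0.08 (95% interval −0.36 to 0.20).

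The scaffold and histone-binding genes had point estimates above 0. SUZ12 was 28.26 and 37.85 TPM in WT and 40.60 and 44.92 TPM in the libraries labelled KO (log2 fold change 0.25, limma adjusted p = 0.172). RBBP7 was 389.18 and 479.06 TPM against 525.94 and 595.39 TPM (0.24, limma adjusted p = 0.175). RBBP4 was 270.58 and 365.80 TPM against 386.11 and 419.83 TPM (0.22, limma adjusted p = 0.211). In these 3 genes both libraries labelled KO lay above both WT libraries, and WT replicate 1, the library with the high mitochondrial share, was the lowest. With TPM rescaled to leave out the mitochondrially encoded genes and SETD2, none of the 10 was called either. EED, the H3K27me3 reader, was 18.82 and 23.41 TPM in WT and 20.31 and 20.68 TPM in the libraries labelled KO (−0.16, limma adjusted p = 0.251). For AEBP2 the log2 difference was 0.21 and for JARID2 0.07, and for the demethylases it was −0.14 for KDM6A and 0.04 for KDM6B, with limma adjusted p from 0.294 to 0.814. After scaling, 5 of the 10 genes had both KO libraries above WT, 3 had both below and 2 overlapped, while 56.9% of all genes tested did not overlap. In simulated data with the spread of these libraries, 0 of 200 genes changed by 0.5 on the log2 scale were recovered and 133 of 200 changed by 1. The intervals of the 10 genes all lay between −0.38 and 0.48. Changes of a full log2 unit are thus outside them, and changes within these bounds are not resolved.

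Return of full-length SETD2 to the KO cells left all 10 genes without a call. Here 0.176% of 15933 genes were called higher and 0.0314% lower, and 0.0816% with a fold of at least 2 as well. The 10 log2 fold changes ran from −0.17 for KDM6B to 0.06 for AEBP2, with limma adjusted p from 0.302 to 0.956. EZH2 was 49.60 and 47.55 TPM in the libraries labelled KO and 47.98 and 49.88 TPM with SETD2 FL, which overlapped (log2 fold change −0.01, 95% interval −0.14 to 0.12). EZH1 was 30.47 and 32.41 TPM against 28.73 and 28.37 TPM, with both SETD2 FL libraries below both labelled KO. Its log2 fold change was −0.16 (SE 0.07, 95% interval −0.31 to −0.0050, unadjusted p = 0.0444, limma adjusted p = 0.302), and it was the 1 gene of the 10 with an unadjusted p under 0.05.

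With SETD2 C, EZH1 rose and the other 9 genes passed no test as fitted, although EED and JARID2 passed it under some other scalings, and EZH2 and KDM6B without scaling. EZH1 was 47.32 and 49.94 TPM with SETD2 C (48.6 ± 1.85, SD, n = 2), against 31.4 ± 1.37 TPM in the libraries labelled KO and 28.6 ± 0.255 TPM with SETD2 FL. Both SETD2 C libraries lay above all 4 other libraries of the table. On the scaled values EZH1 was 1.39-fold higher than with KO (95% interval 1.25 to 1.54, log2 fold change 0.47, SE 0.07, limma adjusted p = 0.00159). It was 1.55-fold higher than with SETD2 FL (95% interval 1.39 to 1.72, log2 fold change 0.63, SE 0.07, limma adjusted p = 0.000472). Neither change reached a fold of 2.

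SETD2 C moved a large part of the transcriptome. Against KO, 21.1% of 15933 genes were called higher and 15.1% lower, and 4.06% with a fold of at least 2. Against SETD2 FL, 21.4% were called higher and 16.8% lower, and 3.78% with a fold of at least 2. The call of 1 gene in 10 is thus not above that background. The log2 fold change of EZH1 was above that of 83.8% of all genes tested against KO and of 90.0% against SETD2 FL.

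The KO libraries were untreated while the SETD2 C and SETD2 FL libraries were transfected, so in the comparisons with KO the construct and the transfection cannot be told apart. The comparison of SETD2 C with SETD2 FL is between transfected cells of the same background. There, however, the SETD2 row was also called, 2.75-fold higher with SETD2 C (log2 fold change 1.46, limma adjusted p = 7.06e-06). TPM is relative to transcript length and SETD2 C is a part of SETD2, so this row may not measure the 2 constructs alike. Unlike the fit here, the paper reported no significant difference in SETD2 mRNA between the constructs in its RNA-seq. It also reported markedly more protein with SETD2 C. With TPM rescaled to leave out the mitochondrially encoded genes and SETD2, the log2 fold change of EZH1 was 0.57 against KO and 0.66 against SETD2 FL. Summed TPM of the 8 line markers was 1583 and 1663 with SETD2 C, 1117 and 1119 with KO, and 952 and 1077 with SETD2 FL, and 4 of the 8 rose against KO, KRT8 by 1.61 on the log2 scale. Against SETD2 FL, 6 of the 8 rose and CDH2 fell by 0.29 on the log2 scale. Of 11 markers of other cell types, UMOD was at 0 in all 10 libraries and only the fibroblast gene COL1A1 passed the filter. Their summed TPM was 11.7 and 13.6 with SETD2 C, 7.29 and 7.39 with KO, and 7.48 and 9.58 with SETD2 FL. COL1A1 made up most of each sum, at 12.06 and 10.73 TPM with SETD2 C, and rose by 0.55 against KO and 0.37 against SETD2 FL on the log2 scale (limma adjusted p = 0.00786 and 0.0339). No other marker of these cell types was above 0.43 TPM in any library. The part of these marker differences in the EZH1 result was not tested, and in bulk RNA more cells of a kind and more RNA per cell cannot be told apart.

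**Figure D2:**
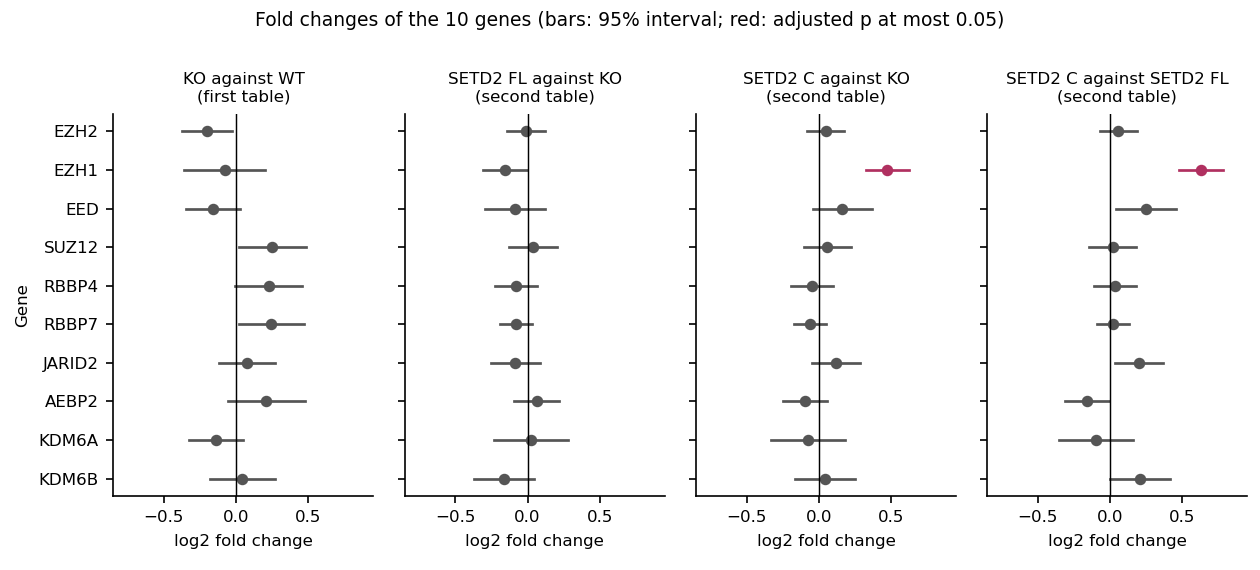
Log2 fold change of each gene (x axis) in the 4 comparisons, with bars for the 95% interval of the limma fit and red for a gene with an adjusted p of at most 0.05. EZH1 is red in both comparisons of SETD2 C, at 0.47 and 0.63, and no other gene is red in any panel.

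The balance of the catalytic pair differed with SETD2 C. EZH2 was 54.01 and 57.33 TPM with SETD2 C, above the 47.55 to 49.88 TPM of the other 4 libraries of the table. After scaling its log2 fold change was 0.05 against KO (95% interval −0.08 to 0.18, limma adjusted p = 0.537) and 0.06 against SETD2 FL (−0.07 to 0.19, limma adjusted p = 0.449). The upper bounds correspond to 1.13-fold and 1.14-fold. EZH1 made up 46.7% and 46.6% of the summed TPM of EZH1 and EZH2 with SETD2 C, against 38.1% and 40.5% with KO and 37.5% and 36.3% with SETD2 FL. This share needs no scaling between libraries. The summed TPM of the pair was 101 and 107 with SETD2 C, against 80.07 and 79.96 with KO and 76.71 and 78.25 with SETD2 FL. The mean log2 ratio of EZH2 to EZH1 was 0.19 with SETD2 C, 0.63 with KO and 0.78 with SETD2 FL, without overlap between SETD2 C and either. An exact two-sided permutation test of the ratio gave p = 0.333, which is the smallest that 2 against 2 libraries allow.

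In the first table EZH1 made up 18.9% to 23.1% of the pair, with WT at 20.4% and 18.9% and the libraries labelled KO at 23.1% and 19.1%. The KO groups of the 2 tables thus differed in EZH1, at a mean of 15.2 TPM in the first and 31.4 TPM in the second, a ratio of 2.07. The same ratio was 1.42 for EED, 0.858 for EZH2, 0.626 for SUZ12, 0.575 for AEBP2, and 0.985 and 0.978 for KDM6A and KDM6B. The tables were normalized separately and were not tested against each other.

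**Figure D3:**
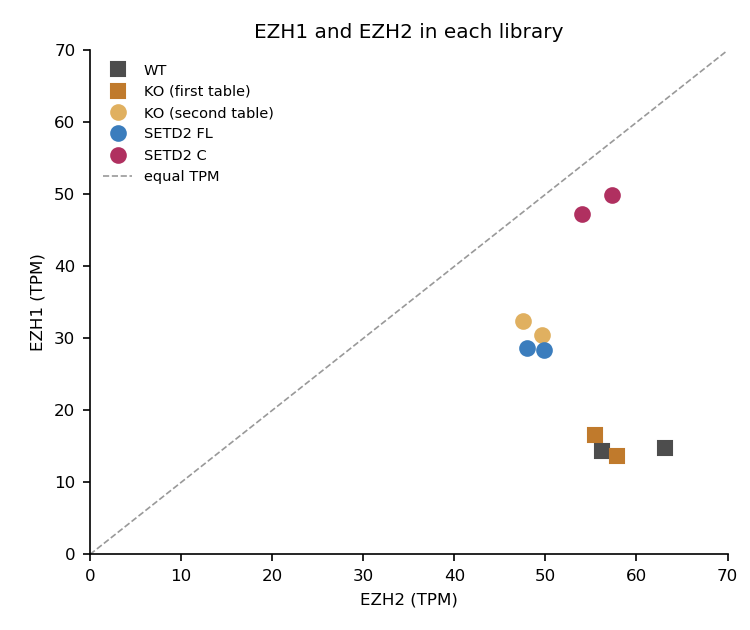
EZH1 (y axis) against EZH2 (x axis), both in TPM, with 1 point per library, squares for the first table and circles for the second, and a dashed line at equal TPM. The SETD2 C libraries lie nearest to the line, with EZH1 at 46.6% and 46.7% of the pair, and the 4 libraries of the first table lie farthest from it.

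The core partner EED was not called, and its value rested on 1 library. EED was 32.87 and 40.05 TPM with SETD2 C, 29.32 and 29.04 TPM with KO, and 26.81 and 28.93 TPM with SETD2 FL. Both SETD2 C libraries were above the other 4, but they lay far from each other. The log2 fold change was 0.16 against KO (limma adjusted p = 0.187) and 0.25 against SETD2 FL (95% interval 0.04 to 0.46, limma adjusted p = 0.0591). Without SETD2 C replicate 1, the lower library, the values were 0.30 (limma adjusted p = 0.0307) and 0.38 (limma adjusted p = 0.0121). Without SETD2 C replicate 2, the higher one, they were 0.03 (limma adjusted p = 0.825) and 0.11 (limma adjusted p = 0.326). In both cases SETD2 C is left with 1 library, which is assumed to vary like the other groups. Against SETD2 FL, EED also passed at 0.28 with quantile normalization (limma adjusted p = 0.0437) and with the rescaled TPM (limma adjusted p = 0.0430), and at 0.25 among genes that reached 1 TPM in each library (limma adjusted p = 0.0477).

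SUZ12 was 30.07 and 31.65 TPM with SETD2 C, 27.75 and 25.77 TPM with KO, and 26.16 and 29.65 TPM with SETD2 FL. Its log2 fold change was 0.06 against KO (95% interval −0.11 to 0.22) and 0.02 against SETD2 FL (−0.14 to 0.18). The SUZ12 values carry a limit from the pseudogene SUZ12P1. Of the 75-base windows of the SUZ12 reference transcript, 6.20% also occur in transcripts of other genes. For SUZ12P1 the share was 91.3%, with 80.5% of its windows in the locus ENSG00000290928 and 28.2% in SUZ12. The windows came from a different annotation release than the gene models the authors counted with. Whether those models held ENSG00000290928 was not tested, so the 91.3% need not apply to the TPM values. SUZ12P1 was listed at 25.68 to 30.41 TPM in the first table, below SUZ12 in all 4 libraries, and at 39.43 to 58.25 TPM in the second, above SUZ12 in all 6. Its TPM was 52.55 and 58.25 with SETD2 C, and in a fit with all gene types its log2 fold change against SETD2 FL was 0.27 (limma adjusted p = 0.0531). With the rows of SUZ12 and SUZ12P1 summed, the log2 fold change against SETD2 FL was 0.18 (limma adjusted p = 0.0710), beside 0.02 for SUZ12 alone. The sum adds TPM of reference transcripts of 4495 and 985 bases, and 5.81% of the SUZ12 windows occur in SUZ12P1. It is therefore not a corrected value for SUZ12.

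**Figure D4:**
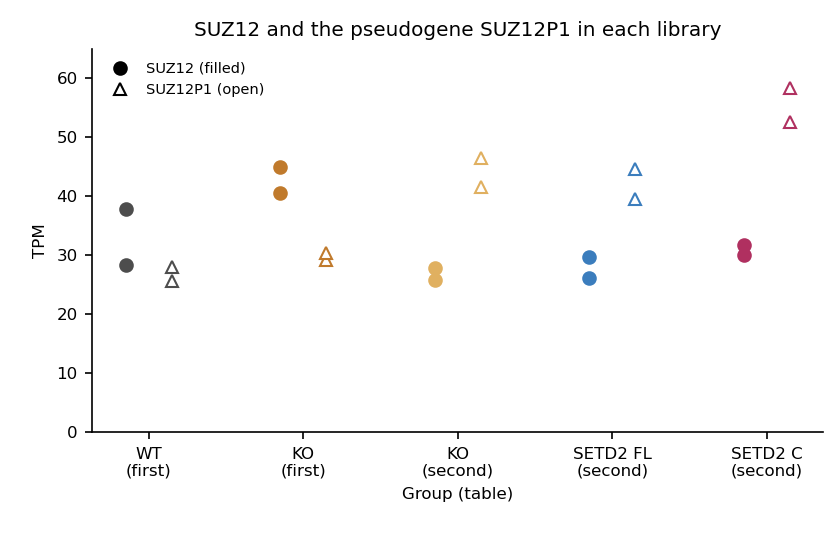
TPM (y axis) of SUZ12 (filled circles) and SUZ12P1 (open triangles) in each library, by group and table. SUZ12P1 is below SUZ12 in the first table and above it in the second, highest at 58.25 TPM with SETD2 C.

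The histone-binding genes RBBP4 and RBBP7 passed no test and had close to the same ratio in every group of a table. RBBP4 was 339.75 and 362.91 TPM with SETD2 C, 312.67 and 342.36 TPM with KO, and 302.88 and 324.55 TPM with SETD2 FL, and RBBP7 was 435.33 and 451.87, 424.26 and 409.88, and 388.43 and 411.90 TPM in the same order. After scaling, the log2 fold changes of SETD2 C were −0.05 and −0.06 against KO and 0.04 and 0.02 against SETD2 FL, with limma adjusted p from 0.359 to 0.755. The mean log2 ratio of RBBP4 to RBBP7 differed by −0.02 to 0.01 in the 4 comparisons. RBBP4 (chromosome 1) overlaps SYNC on the opposite strand and RBBP7 (chromosome X) overlaps TXLNG, and 28.0% and 4.76% of their windows occur in other genes. The strand setting of the counting is not given in the sources used here, so reads of overlapping genes cannot be told apart. Of 6 RBBP4 pseudogenes, RBBP4P1 reached 3.25 TPM and RBBP4P6 was at 0 in every library, and EZH2P1 stayed at or below 0.63 TPM. For EED 7.30% of the windows were shared, all of them with the locus ENSG00000288809, and for EZH1, EZH2, JARID2, AEBP2, KDM6A and KDM6B none were. Whether the gene models the authors counted with held ENSG00000288809 was not tested.

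The accessory subunits of PRC2.2 were not called, and their differences had opposite signs. JARID2, which helps PRC2 to chromatin, was 12.19 and 12.23 TPM with SETD2 C, 10.15 and 10.08 TPM with KO, and 9.47 and 9.84 TPM with SETD2 FL. The SETD2 C libraries were above the other 4. The log2 fold change was 0.12 against KO (limma adjusted p = 0.233) and 0.20 against SETD2 FL (95% interval 0.03 to 0.37, limma adjusted p = 0.0590). With the rescaled TPM it was 0.23 against SETD2 FL (limma adjusted p = 0.0394). AEBP2 was 16.77 and 17.63 TPM with SETD2 C, within the 16.34 to 18.17 TPM of the other libraries. Its log2 fold change was −0.10 against KO (limma adjusted p = 0.285) and −0.16 against SETD2 FL (95% interval −0.31 to −0.01, limma adjusted p = 0.0929).

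Neither H3K27 demethylase passed the test. KDM6A was 18.07 and 15.12 TPM with SETD2 C, 17.17 and 14.42 TPM with KO, and 15.51 and 16.99 TPM with SETD2 FL, and the 3 groups overlapped. The log2 fold change of KDM6A was −0.07 against KO and −0.10 against SETD2 FL, with 95% intervals from −0.35 to 0.18. KDM6B was 9.0 and 8.32 TPM with SETD2 C, 7.94 and 7.22 TPM with KO, and 6.69 and 6.90 TPM with SETD2 FL. The log2 fold change of KDM6B was 0.04 against KO (limma adjusted p = 0.745) and 0.21 against SETD2 FL (limma adjusted p = 0.102).

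Over all 10 genes the median size of the log2 fold change was 0.067 against KO and 0.129 against SETD2 FL, where it was 0.224 and 0.236 over all genes tested. These medians describe the genes chosen and are given with no test. Without scaling between libraries the median of all genes was shifted to 0.18 against KO and 0.16 against SETD2 FL, and 4 and 5 of the 10 genes were then called higher. These were EZH1, EZH2 (limma adjusted p = 0.0407 and 0.0494), EED and JARID2 in both comparisons, and KDM6B against SETD2 FL (limma adjusted p = 0.0226). Relative to that shift, EZH1 stood at 0.44 and 0.60 and EZH2 at 0.01 and 0.03.

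The genes whose pattern over the 10 libraries was most like that of EZH1, after the KO mean of each table was subtracted, were SPAG4 (Pearson r = 0.987), PPP2R5B (0.984) and AL050341.2 (0.982), of 14534 genes compared. They rose with SETD2 C against KO by 1.23, 0.57 and 0.48 on the log2 scale. The genes most like EZH2 were RAB3GAP2 (0.961), FP671120.2 (0.960) and SH3GLB2 (0.956), and none of these was called in SETD2 C against KO. SH3GLB2 was called in SETD2 C against SETD2 FL (0.15, limma adjusted p = 0.0483), and SH3GLB2 (−0.43, limma adjusted p = 0.0419) and FP671120.2 (−1.48, limma adjusted p = 0.0331) were lower in the libraries labelled KO than in WT. EZH1 and EZH2 themselves had an r of 0.20, and EZH1 and JARID2 of 0.81. The similar genes were picked by likeness over these same libraries, so their changes are no separate evidence. The libraries share their controls and scaling, so these values are descriptions.

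The other genes around PRC2 were read from lists of complex members. Of the PRC2.1 subunits and PRC2 inhibitors, 6 of 7 were tested and 1 rose with SETD2 C, LCOR, from which the PRC2.1 subunit PALI1 is also made. The call of 1 gene in 6 is not above the 21.1% and 21.4% of all genes called higher against KO and SETD2 FL. LCOR was 8.38 and 9.50 TPM with SETD2 C, 5.51 and 4.77 TPM with KO, and 6.23 and 5.44 TPM with SETD2 FL. Its log2 fold changes were 0.61 and 0.46 (limma adjusted p = 0.00668 and 0.0193). The Polycomb-like subunits MTF2, PHF1 and PHF19 were at −0.04 to 0.17 in these comparisons and were not called, nor were EPOP and LCORL. Without scaling 3 of the 6 were called higher against SETD2 FL, and with quantile normalization 1 was higher and 1 lower.

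PRC1, the complex that reads H3K27me3 and ubiquitinates H2A, had calls in both directions with SETD2 C, in a share near that of all genes. Of 28 subunits tested, 5 were higher and 7 lower against KO, and 4 higher and 6 lower against SETD2 FL, where 36.2% and 38.2% of all genes were called in either direction. RYBP, of the variant complexes, rose from 6.67 and 6.05 TPM with KO to 11.71 and 12.04 TPM (log2 fold change 0.71 against KO and 0.63 against SETD2 FL). PCGF5 rose by 0.56 and 0.59, and L3MBTL2 fell by 0.65 and 0.78 on the log2 scale. The split depended on the scaling, with 7 higher and 1 lower in both comparisons without scaling, although RYBP, PCGF5 and L3MBTL2 were called in these directions under each scaling tried. In the libraries labelled KO against WT, CBX2 (0.42) and DCAF7 (0.37) were among the subunits called higher. Of 11 genes around the BAP1 deubiquitinase, which removes the PRC1 mark, 2 rose and 2 fell in both SETD2 C comparisons, a share near the same 36.2% and 38.2%. Among them were ASXL1 (0.34 and 0.36) and HCFC1 (−0.50 and −0.64). OGT rose with SETD2 C (0.25 and 0.38) and was lower in the libraries labelled KO than in WT (−0.45), a call that was lost without scaling (limma adjusted p = 0.284). Without scaling the list held 4 higher and 1 lower against KO, and 3 higher and 1 lower against SETD2 FL.

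The partners of KDM6A in the MLL3 and MLL4 methyltransferase complexes fell or passed no test with SETD2 C, 4 of 9 lower against KO and 6 of 9 against SETD2 FL, with none higher, where 15.1% and 16.8% of all genes were called lower and 21.1% and 21.4% higher. KMT2D, the catalytic subunit MLL4, was 11.54 and 12.75 TPM with SETD2 C, 16.86 and 16.47 TPM with KO, and 14.89 and 15.67 TPM with SETD2 FL. It fell by 0.59 and 0.44 on the log2 scale (limma adjusted p = 0.00115 and 0.00303). PAGR1 fell by 0.41 and 0.57 and NCOA6 by 0.31 and 0.45, while KMT2C, the catalytic subunit MLL3, was at 0.08 and 0.09 and not called. The median of the list was −0.17 against KO and −0.24 against SETD2 FL, beside 0.05 and 0.04 over all genes. Without scaling, 2 of the 9 were lower and 1 higher against KO, and 3 lower against SETD2 FL, and NCOA6 was no longer called against KO (limma adjusted p = 0.186).

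The partners of RBBP4 and RBBP7 in deacetylase and assembly complexes had 4 of 19 called higher and 4 lower against KO, and 4 higher and 2 lower against SETD2 FL. These shares were near those of all genes called, 36.2% and 38.2%. MTA3 rose (0.43 and 0.44), SAP30 rose against KO (0.47), HDAC1 rose against SETD2 FL (0.34), and MBD3 fell (−0.40 and −0.47). Without scaling the counts were 5 higher and 2 lower, and 6 higher and 1 lower. Of 34 developmental regulators known as Polycomb targets, 25 were tested, with 4 higher and 2 lower against KO and 5 higher and 2 lower against SETD2 FL. The rest did not reach 0.5 TPM in 2 or more libraries, so the counts cover only regulators expressed in these cells. The 6 and 7 of 25 called are a smaller share than the 36.2% and 38.2% of all genes, and the difference was not tested. GATA2 was 31.65 and 32.89 TPM with SETD2 C, 17.63 and 17.23 TPM with KO, and 18.60 and 19.27 TPM with SETD2 FL (log2 fold change 0.72 and 0.63). BMP2 rose by 0.75 and 0.45, NKX2-1 by 0.68 against KO, and the cell cycle inhibitor CDKN1C by 0.51 against SETD2 FL. GATA2, BMP2 and CDKN1C were also higher in the libraries labelled KO than in WT, by 0.53, 1.07 and 0.59. NKX2-1 went the other way there, at 1.6 and 1.92 TPM with KO and 2.65 and 2.77 TPM in WT, and was not called. The counts without scaling were 6 higher and 1 lower against KO and 11 higher and 1 lower against SETD2 FL, and under quantile normalization they were 4 higher and 5 lower against KO and 4 higher and 4 lower against SETD2 FL. In SETD2 FL against KO no gene of these 6 lists was called, and in KO against WT none of the PRC2.1 genes, the KDM6A partners or the RBBP4 and RBBP7 partners was.

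**Figure D5:**
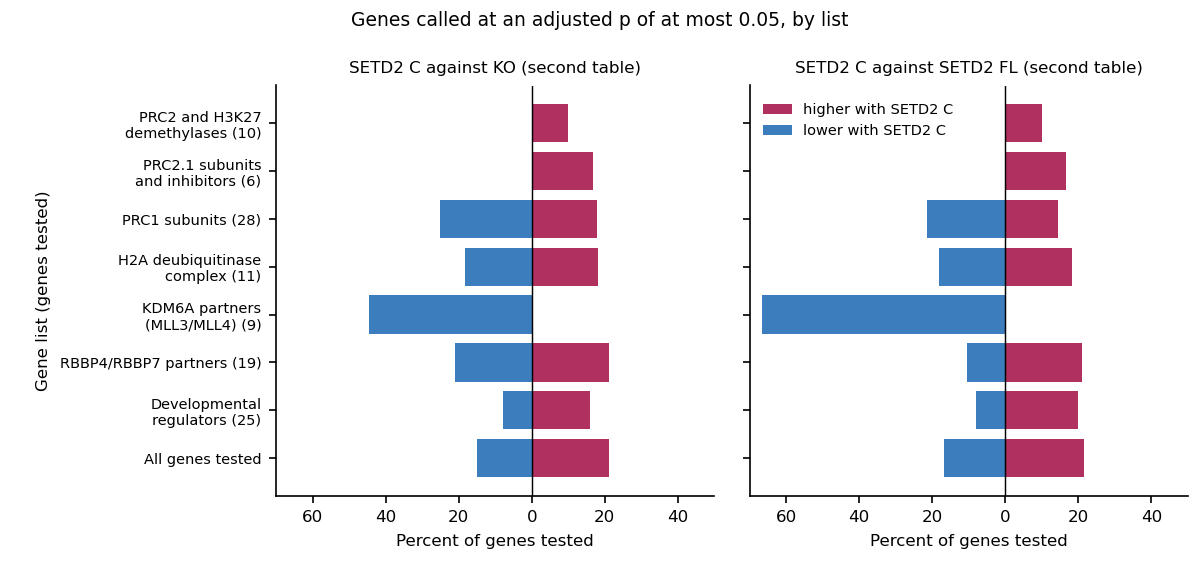
Percent of the genes tested in each list that were called higher (red, to the right) or lower (blue, to the left) with SETD2 C, at a limma adjusted p of at most 0.05, with the number tested in parentheses and all genes tested at the bottom. The bars of the 10 PRC2 genes and H3K27 demethylases hold EZH1 alone, and the bars of the KDM6A partners lie on the lower side, 4 of 9 and 6 of 9 genes.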

How the data were processed

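RNA-seq of 10 libraries was used, after ribodepletion and polyA enrichment and with paired reads of 75 bases. The authors aligned reads to hg38 with Ensembl 96 models in STAR 2.6.1c and estimated TPM with RSEM 1.3.0, and the deposited TPM values in 2 separately normalized tables were used. The authors' edgeR results and the 14 ChIP-seq samples were not used here. Gene types, positions and reference transcripts came from GENCODE 44, where 58472 genes were found by identifier and 31 by symbol, and 381 were not found, and upstream windows from RefSeq, which held all 10 genes.

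Each library was divided by its median ratio to the other libraries, taken over genes that reached 1 TPM throughout the table. The test was limma 3.58.1, run in R 4.3.3 on log2 of scaled TPM plus 0.5, with moderated variances that follow a trend in mean level. It covered protein-coding and lncRNA genes that reached 0.5 TPM in 2 or more libraries, 14746 in the first table and 15933 in the second, where 1 fit was made over 6 libraries. All 10 genes passed this filter in both tables. Fold changes are on this scale, which understates low genes. A gene was called where the p adjusted by Benjamini-Hochberg over all genes tested did not exceed 0.05. Groups came from the sample labels, which do not say whether replicates were separate cultures, so p-values measure only the spread between these samples. The genes named were the 10, up to 3 called genes per list and comparison with the largest change, SETD2, the 3 genes most correlated with EZH1 and with EZH2, and pseudogenes named after a member. KMT2C, MTF2, PHF1, PHF19, EPOP and LCORL were named after their values were seen. A gene that this rule names is not reported here. The 10 genes and the lists were chosen with earlier results of these data known. The procedure was tested on simulated data with 200 changed genes. For SETD2 C against KO it recovered 82 of 200 genes changed by 0.5 on the log2 scale and 183 of 200 changed by 1. Only these 200 genes were changed there, while 36.2% of all genes were called in the real comparison. The adjusted threshold was thus stricter in the simulated data, and the recovery in the real comparison can differ. Alternatives were other pseudocounts, filters and scalings, eBayes without trend, a fit of only the groups compared, a replicate block, and each library left out. The fit of all gene types and the sum of SUZ12 with SUZ12P1 were added after the data were seen.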

Additional observations from a re-analysis of the deposited data

How the results depend on the processing

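The call of EZH1 with SETD2 C held in 16 of 16 settings, the main one included, in both comparisons, at a log2 fold change of 0.42 to 0.62 against KO and 0.59 to 0.76 against SETD2 FL. Of 600 values of single genes under an alternative, 587 kept their side of the threshold, 13 passed it that had not before, and 32 changed sign without a call. The number of the 10 genes called in SETD2 C against KO, 1 in the report, was 4 without scaling, and 1 to 2 with 1 library left out. In SETD2 C against SETD2 FL it was 1 in the report, 2 where each library had to reach 1 TPM, 5 without scaling, 2 with quantile normalization, 3 with TPM rescaled after removing SETD2 and the mitochondrially encoded genes, and 1 to 2 with 1 library left out. The gain with a library left out was EED, without SETD2 C replicate 1. The cause was not tested. None of the 10 was called in KO against WT or SETD2 FL against KO under any alternative. Over all genes, 661 were called in KO against WT, 194 higher and 467 lower (410 and 359 without scaling), 86 without a filter, 413 with eBayes without trend, 429 with all gene types, 1269 with the replicate block and 157 to 1245 with 1 library left out, lowest without KO replicate 2 and highest without WT replicate 2. In SETD2 FL against KO, 33 were called, 3 without a filter, 58 without scaling, 60 with TPM rescaled as above, 10 with eBayes without trend, 7 with all gene types, and 2 to 9 with 1 library left out. In SETD2 C against KO, 5764 were called, 3359 higher and 2405 lower. The split was 5509 to 1117 without scaling, 4578 to 1473 with the rescaled TPM and 2492 to 2753 with quantile normalization, and with 1 library left out 3065 to 3937 were called. In SETD2 C against SETD2 FL, 6087 were called, 3411 of them higher and 2676 lower. The split was 5192 to 1508 without scaling and 2706 to 3039 with quantile normalization, and 3438 to 4413 with 1 library left out. The replicate block, possible for WT and KO of the first table, called 0 of the 10 genes. The deviations of same-numbered libraries there had a Pearson r of 0.147 across 14746 genes with only 2 pairs, and the labels do not say that a number pairs libraries. In the second table no paired analysis was possible because the groups share fewer than 2 replicate numbers. With 2 libraries per group and no read counts, log2 changes near 0.5 were often missed in simulated data.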
